A study of Mus musculus with 4 samples.

Results

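Matrix metalloproteases (MMPs), ADAMTS proteases and their tissue inhibitors (TIMPs) were followed through the cells of irradiated and non-irradiated mouse bone marrow. The members were all gene symbols of the feature table that read Mmp, Adamts or Timp followed by a number, with 1 ADAMTS gene set aside by the rule. This gave 44 of 31053 features, namely 22 MMPs, 18 ADAMTS genes and 4 TIMPs. Of these, 38 had at least 10 unique molecular identifiers (UMIs, the tags that count captured RNA molecules) summed over the 4 libraries and are described by cell class. The 6 others were Mmp1b, Mmp20 and Adamts19, all with 0 UMIs, Adamts16 with 1 UMI, Mmp3 with 2 UMIs and Mmp7 with 6 UMIs.

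Each of the 4 libraries stood for 1 combination of genotype and irradiation in C57Bl/6JCrl mice. Control mice were Vegfc flox/flox. Vegfc-deleted mice carried the same floxed alleles together with RosaCreERT2, a Cre recombinase expressed from the Rosa26 locus in most tissues and made active by tamoxifen, so the deletion was not limited to a cell type. Tamoxifen was given in 5 doses through the stomach at 7 to 8 weeks of age. One statement of the labels gives it to both genotypes and another only to samples 1 to 3. The labels therefore do not settle its use in the irradiated Vegfc-deleted mice. Total body irradiation of 4 Gy followed 2 weeks after tamoxifen, and marrow was taken 7 days after that. Flushed tibia marrow was treated with dispase II, collagenase I and DNase I before sorting for live cells that lacked lineage markers, CD45 and Ter119. Each non-irradiated library came from a pool of 3 mice and each irradiated one from a pool of 2, although the labels also speak of 3 irradiated mice per genotype. With 1 library per group there was no replicate, so no test between groups was possible, and every interval below is a 95% interval that covers counting error only.

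MMPs are zinc-dependent enzymes that cut collagens, gelatin and other matrix proteins. Some are secreted as inactive precursors and others, such as MMP14, sit in the cell membrane. ADAMTS enzymes are secreted relatives that bind the matrix, where several cleave proteoglycans such as versican and aggrecan and others trim the ends of newly made collagen. TIMPs bind and block these enzymes, and TIMP3 also inhibits several ADAM and ADAMTS proteases. In bone marrow, matrix turnover surrounds the sinusoids, the wide thin-walled vessels of the marrow, and accompanies bone remodelling and the exit of blood cells.

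The libraries held 5134 to 7737 barcodes and 54462123 to 77284922 UMIs, and 3834 to 5216 cells per library were kept, with median depths of 7640 to 9869.5 UMIs. Members held 0.132% and 0.109% of all UMIs in the non-irradiated control and Vegfc-deleted libraries and 0.338% and 0.192% in the irradiated ones. Cell classes were clusters named from fixed marker genes, so each name means a class like that cell type. LepR+ stroma, the reticular cells that make CXCL12, counted 1208, 765, 466 and 189 cells, and endothelium 312, 379, 1491 and 692 cells, ordered as control and then Vegfc-deleted mice without irradiation, followed by control and then Vegfc-deleted mice with it. This order holds for all lists of 4 values below, and pairs of values give control before Vegfc-deleted mice. In LepR+ stroma Vegfc itself was at 168, 17.4, 176 and 24.3 CPM. It was thus low in both Vegfc-deleted libraries, including the irradiated one, for which the labels on tamoxifen conflict. Across the libraries 117 barcodes were shared by both non-irradiated libraries and 13 to 24 by each other pair, and 173 kept cells (0.951%) carried such a barcode. Leaving these cells out moved none of the counts below by over 1.5 times.

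Droplets also catch free RNA of other cells, and transcripts of blood cells were found in stroma and endothelium at levels that differed between the libraries. In LepR+ stroma the summed level of 6 neutrophil granule genes (S100a8, S100a9, Ltf, Camp, Ngp and Lcn2) was 134, 393, 206 and 2456 CPM, and in endothelium it was 139, 456, 190.2 and 2247 CPM. Within endothelium it was 139, 379, 195 and 853 CPM in sinusoidal cells and 119, 2159, 118 and 37606 CPM in the few arterial or capillary cells. The summed level of 4 haemoglobin genes was 9020.3, 10008, 2179.8 and 3071 CPM in LepR+ stroma and 7142, 7621, 986 and 239 CPM in endothelium. A level was therefore read as a class's own only where the member's CPM (UMIs per 1000000 UMIs of the class) reached 0.5 times its CPM over all kept cells of that library. Full values are given where a member also had at least 30 UMIs and 50 CPM in a class, which was the case for 22 members. Since the libraries count 3′ ends, 1 tag per molecule, CPM values are not scaled by gene length.

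Members of 1 family were led by different cell classes. Among classes with at least 30 UMIs of a member, Mmp8 and Mmp9 were in all 4 libraries highest in neutrophils, Mmp16, Mmp2 and Timp1 in osteolineage cells, Mmp23 and Adamts2 in LepR+ stroma, and Adamts5, Timp3 and Mmp15 in endothelium. Timp2 reached full values in 7 classes and Timp3 in 5, whereas Mmp12, Mmp15, Mmp16, Mmp19, Timp4, Adamts10 and Adamts12 did so in 1 class each. By class, 16 members reached full values in LepR+ stroma, 13 in osteolineage cells, 8 in endothelium, 6 in pericytes or smooth muscle, 4 in monocytes or macrophages, 3 in neutrophils, 2 in megakaryocytes, and 1 each in dendritic and in T or NK cells. No member did so in B lineage, plasma, basophil or erythroid cells. The counts include Mmp8 and Mmp9 in osteolineage cells and in monocytes or macrophages, Mmp8 in pericytes or smooth muscle and Adamts5 in T or NK cells. The neutrophil RNA or single-cell shares that came with these values are given below. Clusters were built from variable genes that included members, so these differences between classes describe the cells and were not tested. Clustering without the member genes was compared over 24 pairs of a member with LepR+ stroma or endothelium. There it moved no count by over 1.5 times and no named value beyond its interval. Of the other classes, monocytes or macrophages then had 45, 77, 136 and 548 cells in place of 62, 191, 161 and 696.

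**Figure D1:**
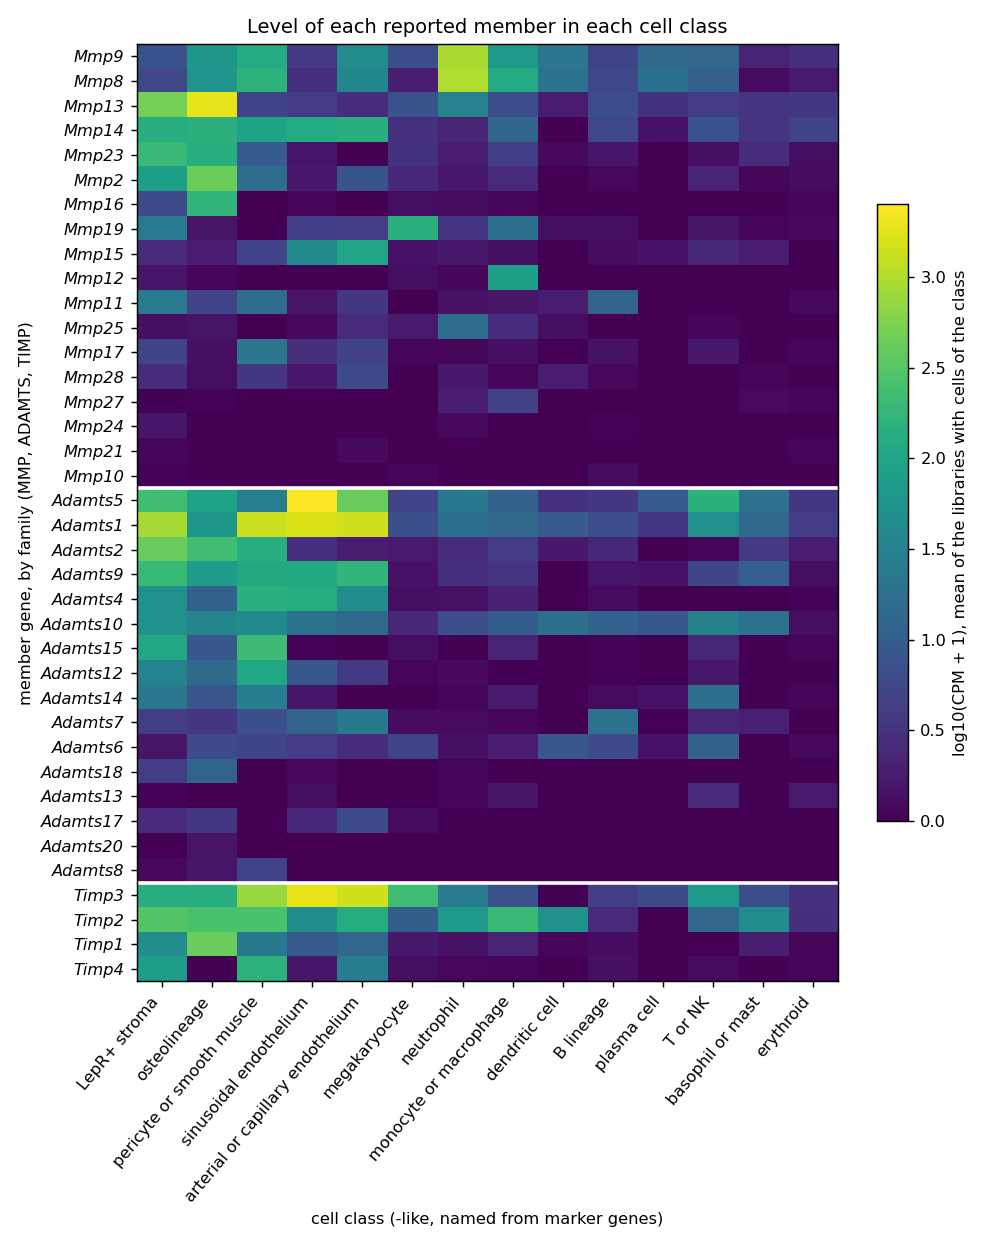
Heat map of the 38 reported members (rows, grouped into MMPs, ADAMTS genes and TIMPs and ordered by total UMIs) in 14 cell classes (columns). Colour gives log10 of CPM + 1, with CPM averaged over the libraries with cells of the class, and the highest means include Adamts5, Timp3 and Adamts1 in sinusoidal endothelium, Mmp13 in osteolineage cells, and Mmp8 and Mmp9 in neutrophils.

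Mmp13, Mmp12 and Mmp8 lie in the MMP cluster of chromosome 9, at chr9:7272514-7283331, chr9:7344381-7369499 and chr9:7558456-7568485 (GRCm38, plus strand), yet each had another leading class. Mmp3 and Mmp10 lie between Mmp12 and Mmp8. Their promoters are shown for this reason, together with those of Adamts1 and Timp3, the members that lead with Adamts5 in endothelium. RefSeq promoter windows of GRCm38.p6, 250 bases before to 50 after the listed start, were found for 26 of the 38 reported members. The windows are chr9:7272264-7272563, chr9:7344147-7344446 and chr9:7347124-7347423 for the 2 listed starts of Mmp12, and chr9:7558179-7558478, all on the plus strand, then chr16:85803064-85803363 on the minus strand and chr10:86300162-86300461 on the plus strand. Capitals mark matches, on either strand, to 1 of 6 motifs: TATAAA (the TATA box), GGGCGG (the GC box), TGANTCA (an AP-1 site), TGACGTCA (a CRE), TGTGGT (a RUNX core) and GAGGAAG (a PU.1 core).
Mmp13: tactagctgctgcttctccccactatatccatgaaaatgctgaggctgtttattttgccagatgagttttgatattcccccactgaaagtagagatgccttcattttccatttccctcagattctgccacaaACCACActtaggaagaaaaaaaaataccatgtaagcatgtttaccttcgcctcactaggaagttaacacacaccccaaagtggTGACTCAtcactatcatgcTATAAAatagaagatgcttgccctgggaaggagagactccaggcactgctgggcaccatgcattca
Mmp12, first start: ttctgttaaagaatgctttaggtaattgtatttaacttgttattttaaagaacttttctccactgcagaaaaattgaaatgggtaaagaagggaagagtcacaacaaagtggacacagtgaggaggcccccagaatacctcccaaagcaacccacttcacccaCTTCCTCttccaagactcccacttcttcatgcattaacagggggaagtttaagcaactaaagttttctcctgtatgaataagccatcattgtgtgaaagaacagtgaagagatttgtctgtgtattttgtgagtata
Mmp12, other start: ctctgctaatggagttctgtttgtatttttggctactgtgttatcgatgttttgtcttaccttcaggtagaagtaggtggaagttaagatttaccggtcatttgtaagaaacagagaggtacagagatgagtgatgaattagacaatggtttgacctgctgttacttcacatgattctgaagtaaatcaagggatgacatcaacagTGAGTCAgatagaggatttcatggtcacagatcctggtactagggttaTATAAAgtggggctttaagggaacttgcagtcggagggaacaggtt
Mmp8: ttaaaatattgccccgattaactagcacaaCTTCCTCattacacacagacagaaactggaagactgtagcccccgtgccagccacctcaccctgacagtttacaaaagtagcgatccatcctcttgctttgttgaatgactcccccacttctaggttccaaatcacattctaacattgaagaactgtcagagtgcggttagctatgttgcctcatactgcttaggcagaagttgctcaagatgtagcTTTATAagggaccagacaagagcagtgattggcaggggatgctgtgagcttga
Adamts1: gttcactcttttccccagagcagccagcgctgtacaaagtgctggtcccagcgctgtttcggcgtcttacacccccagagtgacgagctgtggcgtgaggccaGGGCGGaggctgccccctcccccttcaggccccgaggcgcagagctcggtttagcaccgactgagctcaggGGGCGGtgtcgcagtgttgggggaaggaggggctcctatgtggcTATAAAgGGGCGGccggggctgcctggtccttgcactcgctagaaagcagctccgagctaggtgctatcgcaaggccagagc
Timp3: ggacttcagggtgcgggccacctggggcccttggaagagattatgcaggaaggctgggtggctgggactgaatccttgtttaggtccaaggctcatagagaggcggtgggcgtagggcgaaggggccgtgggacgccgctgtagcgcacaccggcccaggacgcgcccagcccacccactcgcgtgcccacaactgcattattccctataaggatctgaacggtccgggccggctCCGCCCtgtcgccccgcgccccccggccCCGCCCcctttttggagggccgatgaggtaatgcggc

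Mmp13 held a TATAAA at base 235 of its window, a TGANTCA match at base 216 and, on the opposite strand, a TGTGGT match at base 133. For Mmp12, the first window held a GAGGAAG match on the opposite strand and the other a TATAAA and a TGANTCA match. Mmp8 held a TATAAA at base 248 and a GAGGAAG match at base 31, both on the opposite strand. The Adamts1 window held 1 TATAAA and 3 GGGCGG matches, whereas Timp3 held 2 GGGCGG matches and no TATAAA. Among the 26 members TATAAA was found in 6, GGGCGG in 17, TGANTCA in 3, TGACGTCA in 0, TGTGGT in 4 and GAGGAAG in 4. Over all 32851 windows of the same length the shares were 13.6%, 35.7%, 7.81%, 1.79%, 16.8% and 13.6%. These shares are per window, whereas a member was counted with a match in any of its windows. Mmp12 and Mmp23 had 2 windows each. A match describes letters in a window and not a bound site.

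Irradiated LepR+ stroma carried more Adamts15, Mmp2, Adamts9 and Adamts12 and less Adamts4 in both genotypes. A member was called different between 2 libraries where its CPM differed by at least 1.5-fold, with at least 30 UMIs in the higher library and the limit for free RNA met there. In control mice 4 of 18 eligible members were higher after irradiation, against 17.8% of all 9817 eligible genes, and 2 were lower, against 10%. In Vegfc-deleted mice 7 of 19 were higher, against 14.1% of 8008 genes, and 4 were lower, against 15.8%. The median log2 ratio was 0.08 over the eligible members and 0.17 over all eligible genes in control mice, and 0.16 and 0.02 in Vegfc-deleted mice. LepR+ cells of the non-irradiated libraries lay mostly in 1 cluster (1063 and 620 cells) and those of the irradiated libraries in another (379 and 125 cells), so the comparison is between these states. The class ratio of all measured genes had a median log2 of 0.17 and 0.15, which normalization by TMM factors brought to -0.05 and -0.03.

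Adamts15, a proteoglycan-cleaving ADAMTS, was at 21.3 CPM (18.7 to 24.2) and 34.1 CPM (29.8 to 38.8) in the non-irradiated libraries and 204 CPM (191 to 218) and 170.0 CPM (149.6 to 192) in the irradiated libraries. Both irradiated libraries lay above both non-irradiated ones, by 9.59-fold (8.31 to 11.1) in control and 4.99-fold (4.15 to 5.99) in Vegfc-deleted mice. Mmp2, gelatinase A, which cuts denatured collagen and basement membrane collagen, was at 22.0 CPM (19.3 to 25.0) and 20.6 CPM (17.3 to 24.3) in the non-irradiated libraries and 130.4 CPM (120.1 to 141) and 152 CPM (133 to 173) in the irradiated libraries. The difference was 5.92-fold (5.09 to 6.90) and 7.38-fold (5.94 to 9.19), and again the irradiated and non-irradiated libraries did not overlap. At least 1 Mmp2 UMI was found in 10.5%, 8.63%, 41.2% and 33.9% of LepR+ cells, and in 2.44%, 2.18%, 16.3% and 16.6% of those thinned to 1500 UMIs. In erythroid cells, which should lack Mmp2, the share was at most 0.781% in any library, at median depths of 6907.5 to 9927 UMIs against 6704 to 9377.5 in LepR+ stroma.

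Adamts9, which processes versican, was at 113 CPM (107 to 119.7) and 136 CPM (127 to 145) in the non-irradiated libraries and 305 CPM (289 to 322) and 246 CPM (222 to 273) in the irradiated libraries. It was 2.69-fold (2.49 to 2.91) and 1.81-fold (1.60 to 2.05) higher after irradiation. Adamts12, which binds and degrades cartilage oligomeric matrix protein, had 185, 73, 203 and 86 UMIs and stood at 16.7, 10.96, 44.8 and 58.0 CPM, which was 2.68-fold (2.19 to 3.29) and 5.29-fold (3.83 to 7.33) higher. Thinned to equal depth, its log2 ratio in Vegfc-deleted mice went from 2.40 to 1.49. Adamts5, aggrecanase 2, was at 148 CPM (141 to 155) and 125 CPM (116 to 133) in the non-irradiated libraries and 323 CPM (306 to 339.7) and 315 CPM (287 to 345) in the irradiated libraries, and these ratios were 2.18-fold (2.03 to 2.34) and 2.53-fold (2.25 to 2.83). The control ratio was not counted among the calls, because 323 CPM lay under 0.5 times the 867 CPM of Adamts5 over all kept cells of that library. In erythroid cells of the irradiated control library Adamts5 stood at 6.49 CPM.

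Adamts4, aggrecanase 1, ran the other way. It was at 74.4 CPM (69.4 to 79.7) and 84.2 CPM (77.4 to 91.5) in the non-irradiated libraries and 24.5 CPM (20.1 to 29.5) and 19.6 CPM (13.1 to 28.1) in the irradiated libraries, which was 3.04-fold (2.49 to 3.74) lower in control and 4.31-fold (2.97 to 6.49) lower in Vegfc-deleted mice. Its closest relative by substrate, Adamts5, was called higher in Vegfc-deleted mice, so there the ratio of these aggrecanases differed between irradiated and non-irradiated stroma. In control mice the irradiated Adamts5 level lay under the limit for free RNA, so no such ratio was read. In the irradiated Vegfc-deleted library 15 of the 29 Adamts4 UMIs came from 1 cell. Without cells under 1000 genes or over 5% mitochondrial UMIs, the log2 ratio in Vegfc-deleted mice moved from -2.11 to -2.76.

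Adamts1, which cleaves versican and aggrecan and can bind VEGF, was the most abundant member of non-irradiated LepR+ stroma. It stood at 963 CPM (945 to 981) and 1432 CPM (1404 to 1461) in the non-irradiated libraries and 798 CPM (772 to 825) and 288 CPM (261 to 317) in the irradiated libraries. The irradiated Vegfc-deleted library was the lowest of the 4, 4.97-fold (4.51 to 5.49) under its non-irradiated counterpart. In control mice the ratio was 1.21-fold (1.16 to 1.25) lower, short of the threshold. At least 1 Adamts1 UMI was seen in 90.1%, 93.2%, 73.8% and 37.6% of LepR+ cells against 0.303% to 5.83% of erythroid cells. Thinned to equal depth, the LepR+ shares were 61.7%, 72.1%, 47.0% and 27.4%. The summed level of 15 immediate early genes, which respond within minutes to stimulation and to enzymatic digestion, lay in the same order, at 36223, 37664, 17942 and 7349 CPM in LepR+ stroma. Of these 15 genes 11 were lower after irradiation in control mice and 15 in Vegfc-deleted mice. The part of these genes in the levels of Adamts1 and Adamts4 was not tested.

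**Figure D2:**
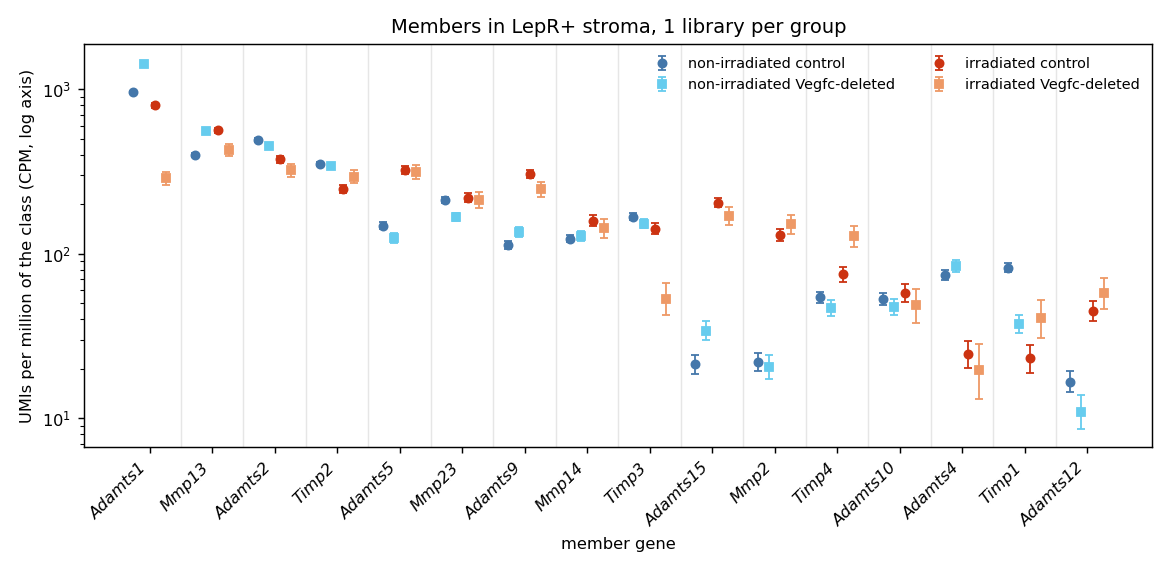
Level of the 16 members with full values in LepR+ stroma (x axis, ordered by mean) in CPM (y axis, log scale), with 1 point per library and exact 95% Poisson intervals. Adamts15 and Mmp2 show irradiated libraries at 130.4 CPM or more and non-irradiated ones at 34.1 CPM or less, and Adamts1 has its lowest point in the irradiated Vegfc-deleted library.

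Mmp13, collagenase-3, passed no call in LepR+ stroma, but fewer of the cells carried it after irradiation. Its class levels were 401 CPM (389 to 413) and 556 CPM (538 to 574) in the non-irradiated libraries and 563 CPM (542 to 585) and 428 CPM (396 to 463) in the irradiated libraries. These lay within 1.5-fold of each other, and after irradiation control mice were 1.41-fold (1.34 to 1.48) higher and Vegfc-deleted mice 1.30-fold (1.19 to 1.41) lower. The share of LepR+ cells with at least 1 Mmp13 UMI, however, was 50.7%, 54.9%, 22.3% and 23.3%, and 26.0%, 32.8%, 12.3% and 14.0% when thinned to equal depth. In the irradiated control library 1 cell held 520 of 2553 UMIs, and the top 5% of cells, 24 cells, held 92.7%, compared with 49.2% in the top 5% of the non-irradiated control cells. Irradiated cells that still grouped with the non-irradiated cluster, 30 and 10 cells, had 4608 and 3312 CPM, against 402 and 552 CPM in the non-irradiated cells of that cluster. The main cluster of irradiated LepR+ cells had 263 and 285 CPM.

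Mmp2 and Adamts15 were split over the same clusters in different ways. Mmp2 stood at 363 and 430.5 CPM in the few irradiated cells of the cluster typical of non-irradiated stroma and at 114 and 154 CPM in the main irradiated cluster, compared with 22.8 and 21.3 CPM in non-irradiated cells. Adamts15 was at 222 and 208 CPM in the main irradiated cluster but at 19.0 and 12.0 CPM in the irradiated cells of the other, on 6 UMIs and 1 UMI. High Mmp2 was therefore found in both groups of irradiated cells, on 115 and 36 UMIs in the smaller, and high Adamts15 in the larger of them. Irradiated cells of the osteolineage cluster led by Mmp13 had Mmp13 at 11824 and 5813 CPM. Mmp2 stood there at 520 and 425 CPM and Adamts15 at 5.13 and 53.7 CPM. Whether osteolineage cells were among the 30 and 10 cells was not tested.

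Other stromal proteases were steadier. Mmp14, the membrane enzyme that activates pro-MMP2, was at 124, 129, 159 and 143 CPM, and Mmp23, a small membrane-anchored MMP, at 213, 168, 219 and 213 CPM. Neither passed 1.5-fold with irradiation. Adamts2, the procollagen N-proteinase that trims fibrillar procollagen, was at 493, 451, 376 and 323 CPM, with both irradiated libraries lower by 1.31-fold (1.24 to 1.38) and 1.40-fold (1.27 to 1.54). Adamts10, which acts on fibrillin, was at 53.3, 47.8, 57.8 and 48.6 CPM. Mmp11, a stromelysin of stromal cells, was at 27.0, 18.8, 20.7 and 29.0 CPM and Adamts14, another procollagen N-proteinase, at 24.3, 27.6, 22.1 and 13.5 CPM, and in Vegfc-deleted mice the first was called higher and the second lower after irradiation.

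The inhibitors went separate ways in LepR+ stroma. Timp1 was at 82.4 CPM (77.1 to 87.9) and 37.5 CPM (33.0 to 42.5) in the non-irradiated libraries and 23.2 CPM (18.9 to 28.0) and 40.5 CPM (30.9 to 52.1) in the irradiated libraries, with the non-irradiated control library the highest. It was 3.56-fold (2.90 to 4.39) lower after irradiation in control mice and 1.08-fold (0.799 to 1.43) higher in Vegfc-deleted mice, which did not pass the threshold, although thinning took that log2 ratio from 0.11 to 1.15. Its log2 ratio in control mice of -1.83 became -2.58 with thinning and lay between -1.21 and -1.0 with doublet calls kept in, with stricter cell filters and as a mean over cells. Timp4 was at 54.4 CPM (50.1 to 58.9) and 46.9 CPM (41.8 to 52.4) in the non-irradiated libraries and 75.0 CPM (67.2 to 83.4) and 128 CPM (111 to 148) in the irradiated libraries and was 2.74-fold (2.27 to 3.29) higher in Vegfc-deleted mice, where 63 of its 190 UMIs lay in a cluster of low depth. Timp3 was at 169 CPM (161 to 176) and 152 CPM (143 to 162) in the non-irradiated libraries and 142 CPM (132 to 154) and 53.3 CPM (42.2 to 66.4) in the irradiated libraries, and the irradiated Vegfc-deleted library was 2.86-fold (2.27 to 3.64) below its non-irradiated counterpart. Both irradiated Timp3 levels lay under 0.5 times the 735 and 171 CPM of Timp3 over all kept cells of those libraries. They were therefore not read as the stroma's own, and the call as lower rested on the non-irradiated level, which met the limit. With doublet calls kept in, the Timp3 log2 ratios went from -0.24 to 0.48 in control and from -1.52 to -0.62 in Vegfc-deleted mice. In the irradiated control library 1 cell held 227 of 645 Timp3 UMIs. Timp2, which also helps MMP14 to activate pro-MMP2, was at 351, 344, 247 and 295 CPM and passed no call.

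Between the genotypes, 3 members differed in LepR+ stroma without irradiation and 4 with it. Without irradiation, Adamts15 was higher in Vegfc-deleted mice (1 of 21 eligible members, against 1.97% of 9889 genes), by 1.60-fold (1.33 to 1.93). Timp1 and Adamts12 were lower (2 members, against 4.62%), by 2.19-fold (1.91 to 2.53) and 1.52-fold (1.16 to 2.02). Averaged over cells rather than over UMIs, the Adamts15 log2 ratio was 0.40 in place of 0.68, and thinning turned that of Adamts12 from -0.61 to 0.16. Adamts1 was 1.49-fold (1.45 to 1.53) higher, just under the threshold. Among irradiated mice, 2 of 17 members were higher in the Vegfc-deleted library, against 6.02% of 8339 genes, and 2 were lower, against 15%. Adamts1 was 2.77-fold (2.51 to 3.07) lower and Adamts14 passed in the same direction. Timp1 and Timp4 were 1.75-fold (1.25 to 2.42) and 1.71-fold (1.42 to 2.05) higher. The Timp4 log2 ratio of 0.77 fell under the threshold in 5 of the alternatives, to between 0.34 and 0.54, and was 0.40 without the cluster of low depth. That of Timp1, 0.81, was 2.70 with thinning and under the threshold with doublet calls kept in (0.57), with stricter cell filters (0.43) and as a mean over cells (0.27). Over the eligible members the median log2 genotype ratio was -0.10 without irradiation and -0.15 with it, and over all eligible genes it was -0.01 and -0.14. In irradiated LepR+ stroma the Vegfc-deleted library also had the highest neutrophil RNA, given above, and the smallest number of cells, and their part in these ratios was not tested.

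Adamts5, Adamts1 and Timp3 were the most abundant members of endothelium, at levels like those of its own markers. Adamts5 was at 2336 CPM (2283 to 2390.3) and 2479 CPM (2429.7 to 2529.8) in the non-irradiated libraries and 2277 CPM (2255 to 2300.0) and 2518 CPM (2479 to 2558) in the irradiated libraries. The genotypes differed by 1.06-fold (1.03 to 1.09) without irradiation and 1.11-fold (1.09 to 1.13) with it, and irradiated and non-irradiated libraries by 1.03-fold (1.00 to 1.05) and 1.02-fold (0.99 to 1.04), all under the threshold. At least 1 Adamts5 UMI was found in 97.1%, 96.0%, 96.1% and 98.0% of endothelial cells and in 0.606% to 5.47% of erythroid cells. For comparison Stab2, the scavenger receptor of sinusoids, was at 1560.3, 1058, 1653 and 1606 CPM and Cdh5, VE-cadherin, at 1206, 1023, 1450.2 and 1198 CPM. In the small arterial or capillary class, with 5, 17, 102 and 25 cells, Adamts5 was at 357, 134, 605 and 539 CPM. It was much higher in sinusoidal endothelium, at 2369, 2585, 2397 and 2596 CPM, and the ranges did not overlap. A single cell held 83.3%, 40.9%, 14.0% and 38.4% of the Adamts5 UMIs of the arterial or capillary class. Adamts5 and Adamts1 are neighbours on chromosome 16, at chr16:85856173-85901828 and chr16:85793827-85803113.

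No member was called higher with irradiation in endothelium, and the same 4 were called lower in both genotypes. In control mice 0 of 13 eligible members were higher, against 19.1% of 9886 genes, and 4 were lower, against 5.56%. In Vegfc-deleted mice 0 of 10 were higher, against 14.4% of 9042 genes, and 4 were lower, against 7.12%. The 4 were Adamts4, Adamts9, Timp2 and Adamts1. The median log2 ratio of eligible members was -0.29 and -0.43, while that of all eligible genes was 0.22 and 0.16. Over all measured endothelial genes the median was 0.17 and 0.15, and 0.08 and 0.03 after TMM normalization. Sinusoidal cells of the non-irradiated libraries lay mostly in 1 cluster (290 and 321 cells) and those of the irradiated libraries in another (1372 and 664 cells).

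Adamts4 was at 262 CPM (244 to 280.0) and 156 CPM (144 to 169) in the non-irradiated libraries and 40.2 CPM (37.2 to 43.3) and 42.3 CPM (37.3 to 47.8) in the irradiated libraries. It was 6.51-fold (5.88 to 7.22) and 3.70-fold (3.19 to 4.29) lower after irradiation, the largest differences of any member with full values in endothelium. The share of endothelial cells with an Adamts4 UMI was 64.4%, 48.5%, 28.2% and 24.9%, and 26.7%, 19.1%, 6.06% and 5.52% when thinned. Adamts9 was at 185 CPM (171 to 201) and 156 CPM (143 to 169) in the non-irradiated libraries and 85.0 CPM (80.8 to 89.5) and 50.6 CPM (45.2 to 56.6) in the irradiated libraries, a 2.18-fold (1.98 to 2.40) and 3.07-fold (2.67 to 3.54) difference downward, opposite to its direction in LepR+ stroma. Between these classes the difference itself was not tested.

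Adamts1 was at 2450.4 CPM (2396 to 2506) and 1818 CPM (1775 to 1861) in the non-irradiated libraries and 1627 CPM (1608 to 1647) and 715 CPM (694 to 737) in the irradiated libraries in endothelium. It was 1.51-fold (1.47 to 1.54) and 2.54-fold (2.45 to 2.64) lower after irradiation, and the control value sat at the threshold: it was 1.5-fold or less, a log2 ratio of -0.47, -0.58, -0.58 and -0.56, with doublet calls kept in, at finer clustering, with stricter cell filters and in sinusoidal clusters alone. Immediate early genes summed to 30334, 28911, 15738 and 7965 CPM in endothelium, and 12 and 14 of the 15 were lower after irradiation. As in stroma, their part in the levels of Adamts1 and Adamts4 was not tested. Timp2 was at 55.0 CPM (47.1 to 63.8) and 82.3 CPM (73.4 to 91.9) in the non-irradiated libraries and 33.5 CPM (30.8 to 36.3) and 37.1 CPM (32.4 to 42.2) in the irradiated libraries, 1.64-fold (1.38 to 1.95) and 2.22-fold (1.86 to 2.64) lower, and thinning took its control log2 ratio from -0.71 to -0.07. Both irradiated Timp2 levels lay under 0.5 times the 81.2 and 93.1 CPM of Timp2 over all kept cells of those libraries.

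**Figure D3:**
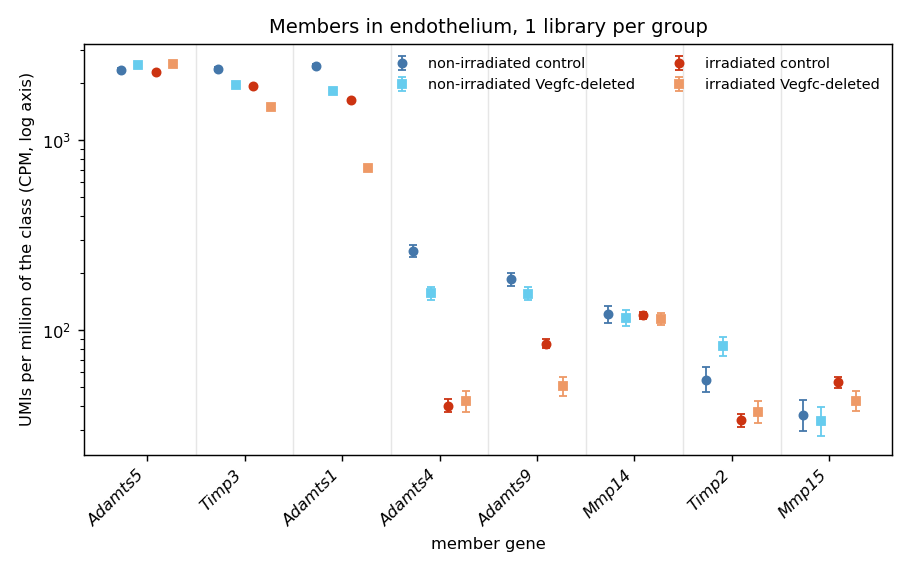
Level of the 8 members with full values in endothelium (x axis, ordered by mean) in CPM (y axis, log scale), 1 point per library with exact 95% Poisson intervals. Adamts5 stays between 2277 and 2518 CPM in all libraries, while Adamts4 falls from 262 and 156 CPM to 40.2 and 42.3 CPM.

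Timp3, the matrix-bound inhibitor, was at 2372 CPM (2319 to 2427) and 1949 CPM (1905 to 1994) in the non-irradiated libraries and 1938 CPM (1917 to 1959) and 1488 CPM (1458 to 1519) in the irradiated libraries in endothelium and did not pass the threshold in any comparison. Mmp14 was at 121, 116, 119.9 and 115 CPM and Mmp15, another membrane MMP, at 35.9, 33.3, 53.2 and 42.5 CPM. Mmp15 was 1.48-fold (1.22 to 1.82) and 1.28-fold (1.03 to 1.59) higher after irradiation, short of a call, and stood higher in the arterial or capillary class, at 79.4, 116, 94.5 and 90.5 CPM on 4, 19, 109 and 21 UMIs. By genotype, Adamts4 alone was called lower in the non-irradiated Vegfc-deleted library (1 of 10 members, against 3.6% of 8088 genes), by 1.67-fold (1.503 to 1.86), and 0 members were higher, against 4.34%. Timp2, at a log2 ratio of 0.58 just under the threshold, also passed as higher with doublet calls kept in (0.62), at finer clustering (0.59), with stricter cell filters (0.65) and in sinusoidal clusters alone (0.61). With thinning the Timp2 ratio was 1.22, and that of Mmp15 went from -0.11 to -0.86. Among irradiated libraries Adamts1 and Adamts9 were lower in Vegfc-deleted mice (2 of 11, against 6.02% of 9992 genes), by 2.28-fold (2.20 to 2.35) and 1.68-fold (1.48 to 1.90), and 0 were higher, against 1.75%.

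**Figure D4:**
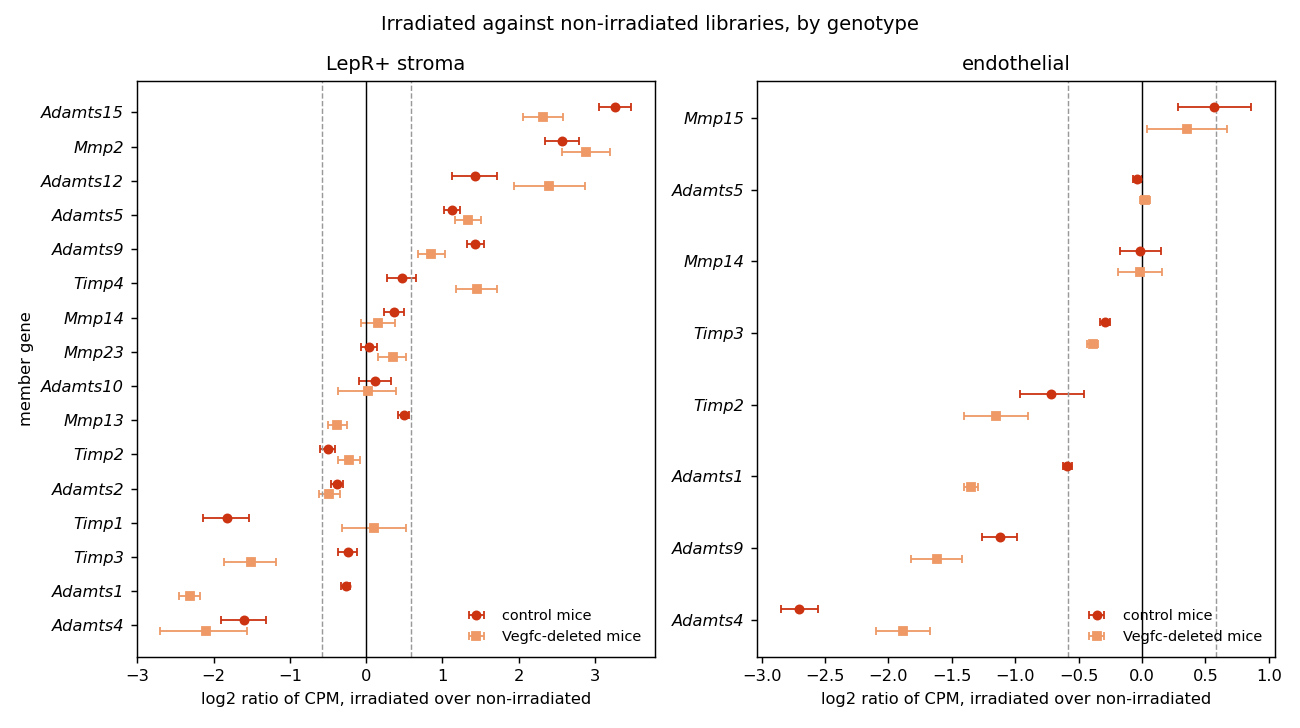
Log2 ratio of CPM in irradiated over non-irradiated libraries (x axis) for members with full values (y axis) in LepR+ stroma (left) and endothelium (right), for control and Vegfc-deleted mice, with exact 95% intervals. Dashed lines mark 1.5-fold, and Adamts9 lies to the right in stroma (1.43 and 0.86) and to the left in endothelium (-1.12 and -1.62).

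Osteolineage cells, 22, 17, 148 and 79 of them, had the highest Mmp16, Mmp2 and Timp1 of the classes with at least 30 UMIs of the gene in all 4 libraries, and the highest Mmp13 in 3 of them. Mmp13, which bone cells use to cut fibrillar collagen, was at 4053 CPM (3860.2 to 4252) and 194 CPM (158 to 236) in the non-irradiated libraries and 2270.5 CPM (2228 to 2313) and 987 CPM (951 to 1024) in the irradiated libraries. Between 83.1% and 100% of these UMIs came from 1 cluster led by Mmp13, Spp1 and Postn, with 11, 3, 39 and 20 cells. In that cluster Mmp13 was at 8220.4, 2569, 11824 and 5813 CPM, whereas a cluster led by Bglap and Col1a1, with 6, 14, 89 and 58 cells, had 5.39, 0, 232 and 59.9 CPM. The non-irradiated values thus rest on few cells, and 1 cell held 393 of the 1661 UMIs in control mice and 46 of the 99 UMIs in Vegfc-deleted mice. No irradiation or genotype effect on the class was read from them.

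Mmp2 was at 207, 388, 629.9 and 489 CPM in osteolineage cells and Mmp16, a membrane MMP, at 163, 147, 208 and 161 CPM. For Mmp16 between 60.4% and 97.9% of the UMIs in a library's kept cells came from this class. Timp1 was at 793, 199.7, 355 and 316 CPM and Timp2 at 622, 116, 206 and 122 CPM. In the Bglap cluster Mmp2 was at 275, 402, 666 and 502 CPM and Timp1 at 938, 205, 285 and 312 CPM. Timp2 was highest in the smallest osteolineage cluster, led by Mepe and Dmp1, at 4567 and 3883 CPM in the control libraries, on 5 and 20 cells. Mmp8 and Mmp9 values in this class, up to 159 and 92.8 CPM, came with neutrophil granule RNA at 53.7, 25992, 4648 and 33513 CPM.

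Neutrophils were the main source of Mmp8, neutrophil collagenase, and Mmp9, gelatinase B, both stored in their granules. Over the class Mmp8 was at 654, 797, 1267 and 1197 CPM and Mmp9 at 543, 716, 1290.3 and 1117 CPM, in 166, 565, 128 and 1214 cells. Both looked higher after irradiation, by 1.94-fold (1.83 to 2.05) and 1.501-fold (1.46 to 1.54) for Mmp8 and 2.38-fold (2.24 to 2.52) and 1.56-fold (1.52 to 1.60) for Mmp9. The class however mixed maturation stages in different parts: the most mature cells lay in 1 cluster in non-irradiated mice (77 and 282 cells, 0 and 4 in irradiated) and in another in irradiated mice (80 and 636 cells, 1 and 10 in non-irradiated).

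Among mature neutrophils the levels lay closer together. Mmp8 was at 3276 and 3301 CPM in the mature cluster of non-irradiated mice and at 3005 and 3572 CPM in that of irradiated mice, and in the few non-irradiated cells of the latter cluster it was at 4789 and 4495 CPM. Mmp9 was at 2452 and 2782 CPM in the first and 2894 and 2920.0 CPM in the second. In the Camp- and Ltf-rich immature cluster Mmp8 was at 46.4, 139, 76.2 and 234 CPM and Mmp9 at 245, 248, 212 and 463 CPM, so Mmp9 led Mmp8 in immature cells and trailed it in mature ones. Mmp25, a membrane MMP of leukocytes, was low, with 7.596, 9.16, 24.7 and 19.7 CPM over the class. The sort was set against CD45+ and lineage-positive cells, so the number of neutrophils here is not their number in marrow.

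Among monocytes or macrophages, Mmp12, macrophage elastase, was found in those of irradiated mice only. No Mmp12 UMI was found among 652374 and 2392043 UMIs of that class in the non-irradiated libraries, which allows up to 4.60 and 1.25 CPM. In the irradiated libraries it was at 282 CPM (261 to 305) in control and 49.9 CPM (45.4 to 54.7) in Vegfc-deleted mice. Over the class as a whole, this was at least 61.4-fold and 39.8-fold higher when set against the floor of 3 counts per library. The cells behind this were few. Of 161 and 696 irradiated monocytes or macrophages, 6.21% (3.02 to 11.1) and 3.59% (2.34 to 5.26) had a Mmp12 UMI, and 1 cell held 371 of the 648 UMIs in control mice. Of the UMIs 98.8% and 96.7% came from the cluster led by C1qb and H2-Aa, which held 6 and 7 non-irradiated and 53 and 316 irradiated cells. That cluster held 0, 0, 640 and 437 Mmp12 UMIs, and between the irradiated libraries the one with more of these cells had the lower level, 79.9 against 466 CPM. In the non-irradiated libraries the C1qb and H2-Aa cluster held 75268 and 63508 UMIs of all genes, so its Mmp12 intervals reached 49.0 and 58.1 CPM. Of the 2392043 class UMIs, 2094657 came from the monocyte cluster led by F13a1, Fn1 and Ccr2. That monocyte cluster held only 0.154% and 0.664% of the Mmp12 UMIs of the class in irradiated mice. The fold bounds above therefore hold for the class and not for the C1qb and H2-Aa cluster. With so few non-irradiated cells in the C1qb and H2-Aa cluster, fewer such cells and less Mmp12 RNA per cell cannot be told apart.

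Timp2 was also a gene of this class, at 185, 62.7, 271 and 255 CPM. In the C1qb and H2-Aa cluster it was at 332, 63.0, 327 and 345 CPM and in a cluster of low depth led by Cd5l and C1qa at 348, 492, 492 and 415 CPM. In the monocyte cluster led by F13a1, Fn1 and Ccr2 it was at 9.69, 14.8, 13.6 and 21.7 CPM, so the clusters rich in C1q genes were higher in it. An unnamed cluster led by Ctsk, Acp5 and Atp6v0d2, genes that osteoclasts use to resorb bone, held 7 and 42 irradiated and no non-irradiated cells. There Mmp9 was at 272 and 2833 CPM and Mmp14 at 82.5 and 302 CPM.

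**Figure D5:**
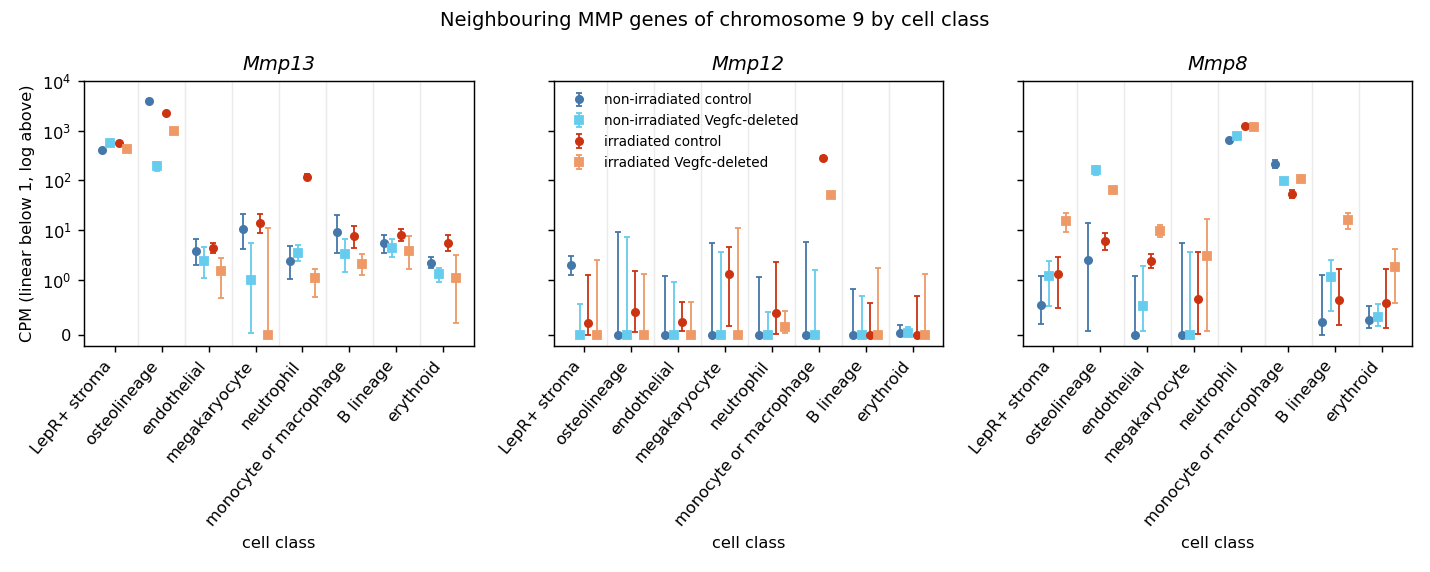
CPM of Mmp13, Mmp12 and Mmp8, of the MMP cluster of chromosome 9, in 8 cell classes (x axis), 1 point per library with exact 95% Poisson intervals. The y axis is linear below 1 and logarithmic above, and the highest class is osteolineage cells or LepR+ stroma for Mmp13, monocytes or macrophages for Mmp12 in irradiated mice, and neutrophils for Mmp8.

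Megakaryocytes carried Mmp19, a secreted MMP of basement membrane substrates, at 127 CPM (101 to 157) and 223 CPM (195 to 254) in the non-irradiated libraries and 129.8 CPM (112 to 149) and 89.6 CPM (60.5 to 128) in the irradiated libraries, and Timp3 at 129.8, 296, 154 and 299 CPM. Mmp19 was higher in the non-irradiated Vegfc-deleted library than in the others, by 1.76-fold (1.37 to 2.28) over its control. The top cell of each library held 28, 65, 137 and 19 of its Mmp19 UMIs, which was 67.8% in the irradiated control library. Pericytes or smooth muscle, 18, 11, 15 and 7 cells, had Adamts1 at 1622, 2515, 870.2 and 367 CPM, Timp3 at 360.0, 695, 1274 and 634 CPM, Adamts15 at 74.8, 327, 193 and 250.1 CPM and Timp2 at 196, 378, 279.7 and 217 CPM. A single cell held up to 51.2% of the Timp3 UMIs of a library, and all 38 Mmp8 UMIs of the class lay in 1 cell of the irradiated Vegfc-deleted library. At these cell numbers no difference between libraries was read from them.

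The remaining 16 reported members stayed under the limits for full values in every named class. Adamts7 was led by B lineage cells in the non-irradiated libraries, at 34.9, 26.0, 7.29 and 3.30 CPM, and by endothelium in the irradiated ones, at 12.4, 13.9, 9.95 and 9.97 CPM. Among classes with at least 30 UMIs, Mmp11 and Adamts14, given above, were led by LepR+ stroma except that T or NK cells led Adamts14 in the irradiated Vegfc-deleted library, at 19.7 CPM. Adamts13, the protease that cuts von Willebrand factor and is made mainly in liver, had 141 UMIs in all, mostly in non-irradiated erythroid cells at 0.999 and 1.96 CPM. Adamts18 had 166 UMIs and reached 30 UMIs in a class only in osteolineage cells of the irradiated control library. Adamts6 had 395 UMIs, with 34, 38, 19 and 6 UMIs in B lineage cells and 8, 13, 47 and 16 UMIs in endothelium. Mmp17 had 249 UMIs, with 44, 20, 24 and 5 UMIs in LepR+ stroma and 6, 5, 42 and 16 UMIs in endothelium, and Mmp28, epilysin, had 118 UMIs, with 23, 5, 14 and 2 UMIs in LepR+ stroma. Adamts17 had 116 UMIs, and osteolineage cells held 0, 0, 19 and 17 UMIs. Mmp27, a further gene of the chromosome 9 cluster, had 106 UMIs, with 2, 12, 1 and 25 UMIs in neutrophils and 5, 2, 8 and 19 UMIs in monocytes or macrophages. These counts follow the number of cells in each class as well as the level. Mmp24, Adamts20, Adamts8, Mmp21 and Mmp10 had 22, 17, 15, 14 and 11 UMIs. Adamts5 also reached 462 CPM in the 42 T or NK cells of the irradiated control library, where 1 cell held 80 of 231 UMIs and 3 cells held 73.2%.

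Gene overlaps could limit some of these counts. Timp1, Timp3 and Timp4 overlap Syn1, Syn3 and Syn2 on the opposite strand, Mmp11 overlaps Chchd10 and Mmp12 overlaps Mmp1b. Cep295nl overlaps Timp2 on the same strand. The sources used here do not say how the counting treated strand and overlaps, and whether tags of such pairs were kept apart was not checked.

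Genes that act with the members were read from 4 lists by the same call rule, against the shares and medians of all eligible genes given above. Of the genes that activate, dock or clear proteases, 10 and 9 were eligible in LepR+ stroma. In control mice 3 (Pcsk5, Cd44 and Reck) were higher and 3 lower after irradiation, with a median log2 ratio of -0.14, and in Vegfc-deleted mice 0 were higher and 4 lower, with a median of -0.20. Serpine2, protease nexin 1, was among the lower genes in both genotypes, at 4509, 3873, 2216 and 2018 CPM. In endothelium Plau, the urokinase that makes plasmin, was at 19.7, 12.3, 106 and 49.5 CPM and its receptor Plaur at 106, 75.2, 45.1 and 30.2 CPM, so they moved in opposite directions after irradiation, with 1 higher and 1 lower of 7 in control and 2 higher and 1 lower of 7 in Vegfc-deleted mice.

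Matrix substrates were more often higher than lower. In LepR+ stroma 5 of 13 and 6 of 14 eligible substrates were higher after irradiation and 2 lower in each genotype, with medians of 0.34 and 0.38. Col4a1, a chain of basement membrane collagen IV that MMP2 can cut, was at 534, 575, 1039.8 and 1066 CPM, and Dcn, decorin, at 542, 523, 199.6 and 186 CPM. In endothelium 3 of 8 and 6 of 9 were higher and 0 lower, with medians of 0.46 and 0.69. Col4a1 was at 313, 396, 660.2 and 608 CPM there and Fn1, fibronectin, at 0.953, 4.45, 91.6 and 116 CPM. Of the ADAM proteases, the membrane-bound relatives, 2 of 5 were higher in LepR+ stroma in each genotype and 0 lower, and 2 of 6 and 1 of 6 were higher in endothelium. Adam17, which sheds cytokines and receptors, was at 51.8, 53.0, 97.7 and 83.0 CPM in LepR+ stroma. Of the ADAMTS-like proteins, which lack the protease domain, 1 of 5 was higher and 1 lower in control LepR+ stroma and 0 and 2 in Vegfc-deleted, with Thsd4, which binds fibrillin, at 159, 277, 135 and 127 CPM. By genotype, 0 to 3 genes of each list were called in LepR+ stroma or endothelium in either direction.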

How the data were processed

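Single cells of 4 bone marrow libraries were profiled with Chromium 3′ v3.1 kits on a NovaSeq, per the labels' protocols. The authors deposited raw UMI counts per gene and barcode. Cell Ranger 2.1.1 and mm10 stand in the submitters' processing notes, whereas the file headers give software version 3.1.0. The sources used here give neither the annotation release nor how cells were called. Groups came from the labels, with 1 library each, so values carry exact Poisson, binomial or conditional 95% intervals and no test.

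Cells with at least 500 genes and at most 10% mitochondrial UMIs were kept, and the top Scrublet scores (0.8% per 1000 barcodes) were removed as doublets. Cells were clustered on 2000 variable genes, 40 principal components and 20 neighbours (Leiden resolution 1, seed 7, no batch correction). A cluster was named from 20 marker lists where its score reached 2 with a margin of 1 and 3 detected markers, with an own marker among its 10 leading genes or a score of 4 at sufficient depth. This named 35 of 40 clusters. Counts were summed per library and class and scaled to CPM. Full values were given to members with at least 30 UMIs, 50 CPM and 0.5 times the CPM over all cells in some library. Gene positions came from GENCODE M21. The scripts were tested on simulated data. Tools were Python 3.11.15, numpy 2.4.6, scipy 1.17.1, pandas 2.3.3, scanpy 1.11.5, scikit-learn 1.9.0, leidenalg 0.10.2, igraph 0.11.9, edgeR 4.0.16 (TMM factors only) and matplotlib 3.10.9.

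The members and lists were chosen with earlier results of these data known. The immediate early list, and the alternatives that clustered without members, left out the shallow LepR+ cluster, added the shallow unnamed endothelial cluster or left out shared barcodes, were chosen after seeing the data. Some genes of the lists and some gene overlaps are not reported here.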

Additional observations from a re-analysis of the deposited data

Results flagged for a closer look

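In LepR+ stroma, Mmp13 lay in opposite directions after irradiation in the 2 genotypes. Its log2 ratio of irradiated over non-irradiated CPM was 0.49 in control mice and -0.38 in Vegfc-deleted mice. Each group was 1 library, neither ratio reached 1.5-fold, and the difference between the genotypes was not tested. In the irradiated libraries 1 cell held 20.4% and 35.7% of the Mmp13 UMIs of the class.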

How the results depend on the processing

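Of 896 gene values recomputed over 24 gene and class pairs, 743 stayed within their interval, 152 moved past it and 1 reversed: thinning to 1500 UMIs per cell took the Adamts12 log2 ratio of Vegfc-deleted over control in non-irradiated LepR+ stroma from -0.61 to 0.16. Most moves came with thinning (46), TMM factors (25), the mean of per-cell CPM (24), stricter cell filters (23) and no doublet removal (19). The number of called members in non-irradiated endothelium by genotype was 1, and 2 with no doublet removal, Leiden resolution 2, stricter cell filters, sinusoidal clusters only or the shallow unnamed endothelial cluster added, 3 with thinning and 0 at 2-fold. In irradiated LepR+ stroma by genotype 4 members became 1 with thinning, 2 with the mean of per-cell CPM, 1 at 2-fold and 7 with a minimum of 10 UMIs. In non-irradiated LepR+ stroma by genotype 3 became 1 at 2-fold and 6 with 10 UMIs. At 2-fold the irradiation count in control endothelium went from 4 to 2 and the genotype count in irradiated endothelium from 2 to 1. With 10 UMIs the irradiation count in control LepR+ stroma went from 6 to 10 and that in Vegfc-deleted endothelium from 4 to 8. The cause of these moves was not tested. The irradiation count of 11 in Vegfc-deleted LepR+ stroma moved by over 1.5 times under none of the alternatives run.

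No paired analysis was possible because each group has 1 library. Intervals cover counting error only and leave out variation between mice, pools and libraries, so a genotype or irradiation difference cannot be told apart from a difference between libraries. Classes of few cells, and members whose UMIs lie mostly in 1 cell, limit the values further.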
